A study of Rattus norvegicus with 84 samples.

Results

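The 10 genes described here are widely used markers of astrocytes: Gfap, Aqp4, Agt, S100b, Aldh1l1, Gja1, Gjb6, Sox9, Slc6a11 and Aldoc. They were taken by symbol from a count table of 41919 rat genes, and all 10 passed the filter on low counts. The study compared cocaine withdrawal with extinction in 2 subregions of the rat nucleus accumbens, the Core and the Shell. It holds 84 bulk RNA-seq libraries from wild-type Long-Evans rats, in 12 groups of 7. Each group joins a subregion with 1 of 3 abstinence codes (Ext, HC or Ctx) and 1 of 2 drug codes (Coc or Sal), so that the groups are Ext_Coc, Ext_Sal, HC_Coc, HC_Sal, Ctx_Coc and Ctx_Sal in each subregion. The codes are used as the labels give them. The labels used here give no age, sex, cocaine dose or length of abstinence, and do not say whether each library came from a separate rat, so p-values measure the spread between libraries, which may in part be technical.

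Astrocytes are the glial cells that clear transmitters and potassium from around synapses, wrap blood vessels and are joined to each other by gap junctions. Their marker genes do not all label the same astrocytes: fibrous astrocytes near white matter and at the brain surface are rich in the filament protein encoded by Gfap, while protoplasmic astrocytes of grey matter are better marked by transporters and enzymes. In forebrain, including the accumbens, astrocytes take up glutamate and GABA and respond to dopamine.

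The libraries held 13.6 M to 22.5 M counts. Their names fall into series: prefixes 1 and 2 are Core, prefixes 3 and 4 are Shell, and only the names ending in F (12 Core and 12 Shell libraries) cover both subregions, so that outside the F series subregion and series cannot be told apart. The log2 CPM of a gene is its count divided by its library's scaled total, on a log2 scale. A background level was taken from 2033 olfactory and vomeronasal receptor genes, which brain tissue hardly uses. This level is the log2 of their summed CPM, with each library's unscaled total. Its median was 9.99 in Core (6.18 to 12.1) and 9.97 in Shell (6.61 to 11.23), but within the F series it was 7.41 in Core against 9.79 in Shell. Core Ctx_Coc library 17-F stood apart with the highest background level of all 84, 12.1. Markers of the tissue were present throughout: the summed level of 7 genes of striatal projection neurons had a median of 1960 CPM in Core and 2030 CPM in Shell. Markers of mature oligodendrocytes, the myelin-forming cells, differed between the subregions, with a median of 3480 CPM in Core (435 to 6170) and 1180 CPM in Shell (764 to 1590). The Core limit of 435 CPM is 17-F; the next Core library was at 1810 CPM, so without 17-F the subregions did not overlap in these markers. The summed level of 13 astrocyte markers, the 10 genes and 3 more, did not separate the subregions in this way (1650 CPM in Core, 499 to 2200, and 1670 CPM in Shell, 1260 to 2000); the Core limit of 499 CPM is again 17-F, and the next Core library was at 1370 CPM. In such bulk samples, fewer cells of a type and less RNA per cell cannot be told apart.

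The astrocyte genes did not move together between the subregions. Gfap and Aqp4 were lower in Shell, Agt, Gjb6 and Slc6a11 were higher in Shell, and S100b, Gja1, Sox9, Aldoc and Aldh1l1 did not pass the test over all libraries. That is 5 of 10 genes called at an adjusted p under 0.05 (edgeR quasi-likelihood test, Benjamini-Hochberg over 32145 genes), where 13.3% of all tested genes were called. By direction, 3 of 10 were higher, against 4.56% of all genes, and 2 of 10 were lower, against 8.77%. The median log2 fold change of the 10 genes, Shell minus Core, was -0.18, against 0.05 over all genes. That the set moves in both directions was known when it was put together. Within either subregion, none of the 10 genes passed a test between abstinence or drug groups.

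Levels can be set between genes only per length of gene. On the authors' FPKM scale (fragments scaled to gene length and library total), the length implied by the files was close to that of the whole gene with its introns, for example 8741 bases for Gfap and 115348 for Slc6a11, so a gene with long introns has a low FPKM. In Core, the median FPKM was 40.9 for Aldoc, 18.6 for S100b, 8.70 for Gja1, 8.46 for Gfap, 7.27 for Aqp4, 4.98 for Sox9, 1.04 for Agt, 0.772 for Gjb6, 0.589 for Aldh1l1 and 0.526 for Slc6a11. In Shell the order of FPKM changed at 2 places: Gfap, at 2.88, came after Aqp4 at 5.04 and Sox9 at 4.93, and Slc6a11 at 0.744 came before Aldh1l1 at 0.536. Neighbours in these orders overlapped over libraries, as Gja1 (1.44 to 14) and Gfap (1.32 to 15.8) did in Core, except that in Shell every library's Aldoc FPKM (22.5 to 59.9) was above every library's S100b FPKM (11.5 to 22.3). Without 17-F the same held in Core (Aldoc 31.3 to 63.3, S100b 13.9 to 26.8), where Sox9 (3.71 to 7.95) was then also above Agt (0.458 to 2.13) in every library. All levels that follow are log2 CPM of 1 gene, and all differences are log2 fold changes, Shell minus Core.

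Gfap and Aqp4 encode structural and water-handling proteins of the astrocyte. Gfap is the glial filament protein of the cytoskeleton, and its log2 CPM in Core ran from 2.49 over a median of 6.14 to 7.64, the lowest being library 17-F; without that library the lowest was 5. In Shell it ran from 3.69 over a median of 4.62 to 6.59. Of the 42 Shell libraries, 41 lay below the Core median, and 14 Core libraries lay above the highest Shell library, while the ranges overlapped. The difference was -1.61 ± 0.17 (SE), 3.06-fold lower in Shell (edgeR adjusted p = 1.68e-12).

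The Gfap medians by group kept the subregions apart in all 12 groups. In Core the 7 libraries of Ext_Coc ran from 5.53 over 6.91 to 7.41, of Ctx_Sal from 5.46 over 6.39 to 7.31, of HC_Sal from 5.52 over 6.15 to 7.01 and of HC_Coc from 5.59 over 6.14 to 7.44. The remaining Core groups were Ext_Sal, 5.43 over 5.89 to 7.64, and Ctx_Coc, 2.49 over 5.83 to 7.04. In Shell the medians were 4.77 in Ctx_Sal (3.69 to 6.59), 4.75 in HC_Coc (4.13 to 5.14), 4.64 in Ext_Sal (4.16 to 5.4), 4.54 in HC_Sal (3.76 to 5.71), 4.39 in Ext_Coc (3.8 to 5.87) and 4.39 in Ctx_Coc (3.91 to 5.99). The highest Shell median was thus below the lowest Core median, and within a subregion the libraries of neighbouring groups overlapped throughout. In HC_Coc the 7 Shell libraries (highest 5.14) lay wholly below the 7 Core libraries (lowest 5.59) (1.52% of all genes were called in that group), and in Ext_Sal too the highest Shell library, 5.4, was below the lowest of Core, 5.43 (1.15% called). Tested within single groups of 7 against 7, Gfap was lower in Shell in 4 of 6 groups, most in Ext_Coc (-2.15 ± 0.42, edgeR adjusted p = 0.000468), where 1.71% of all genes were called. In HC_Sal, where 0.946% were called, it was -1.59 ± 0.41 (edgeR adjusted p = 0.0276). In Ctx_Coc and Ctx_Sal the difference was -1.19 ± 0.41 and -1.36 ± 0.41, without passing (edgeR adjusted p = 0.547 and 0.0688, where 0.109% and 1.65% of all genes were called).

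The size of the Gfap difference moved with the libraries and with background. Within the F series without 17-F, the only series with both subregions, 11 Core libraries (5.61 to 7.31) and 12 Shell libraries (3.76 to 5.16) did not overlap, and the difference was -2.36 ± 0.22 (edgeR adjusted p = 0.000703, with 2.1% of all genes called). Among libraries with a background level of 9 to 11, 26 of Core (median Gfap 5.8) and 39 of Shell (median 4.61), the difference was -1.09 ± 0.14. With the background level as a covariate over all 84 libraries it was -1.14. With 17-F kept, Gfap alone of the 10 genes was called in the F series (-2.20, edgeR adjusted p = 0.034), where 0.226% of all genes were called. Gfap was lower where background was higher in Core (Spearman rho -0.87 over 41 libraries without 17-F), and less closely so in Shell (-0.44 over 42). Gfap also followed the summed myelin markers in Core (rho 0.79) but not in Shell (0.16). The Core rho was alike for S100b (0.84), Aqp4 (0.81), Gja1 (0.80), Sox9 (0.79) and Aldoc (0.79). It was lower for Gjb6 (0.54), Agt (0.40), Slc6a11 (-0.05) and Aldh1l1 (-0.26). With the summed projection neuron markers Gfap had a rho of 0.71 in Core and -0.10 in Shell. Myelin's part in the difference was not tested. These correlations are over libraries that share depth and composition, and are given as descriptions.

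**Figure D1:**
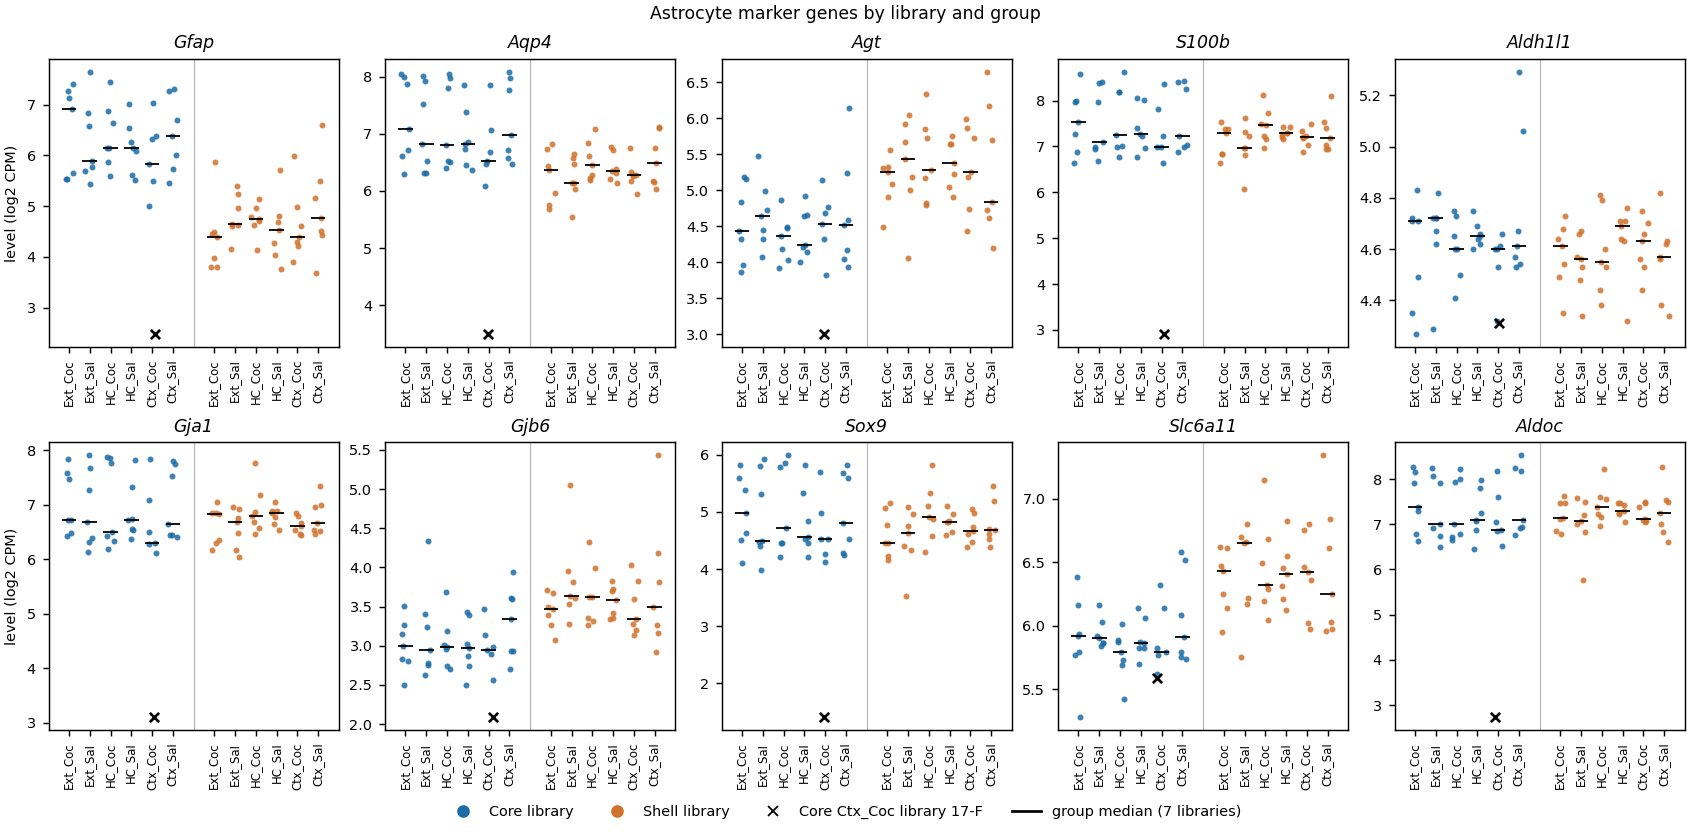
Log2 CPM of each of the 10 genes (vertical axes, 1 panel a gene) in the 84 libraries, by group along the horizontal axis, Core in blue and Shell in orange; bars are medians of 7 libraries and the cross is Core Ctx_Coc library 17-F. The Shell medians of Gfap (4.39 to 4.77) all lie below its Core medians (5.83 to 6.91), and those of Agt and Slc6a11 all above theirs.

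Aqp4 is the water channel of astrocyte endfeet on vessels. Its level in Core ran from 3.5 (library 17-F) over a median of 6.81 to 8.08, and in Shell from 5.55 over 6.32 to 7.12. The Shell libraries filled a narrow band, with 37 of 42 below the Core median, while 15 Core libraries lay above the highest Shell library. The difference was -0.74 ± 0.13, 1.67-fold lower in Shell (edgeR adjusted p = 9.39e-06). The high Core libraries were those of low background: the Core median was 7.46 in series 1 and 7.86 in the F series, against 6.53 in series 2, where the background median was 10.28. At a background level of 9 to 11 the Aqp4 medians were 6.55 in Core and 6.31 in Shell and the difference was -0.23 ± 0.08. With background as a covariate it was -0.27 (edgeR adjusted p = 0.000152). In the F series without 17-F the Aqp4 difference was larger, -1.24 ± 0.27 (edgeR adjusted p = 0.0344), where 2.1% of all genes were called. Aqp4 was lower where background was higher in both subregions (rho -0.96 in Core without 17-F and -0.85 in Shell). The Core group medians of Aqp4 ran from 6.53 (Ctx_Coc) to 7.08 (Ext_Coc) and the Shell ones from 6.13 (Ext_Sal) to 6.49 (Ctx_Sal). By group, the Shell mean was below the Core mean in 6 of 6 groups, but in none did Aqp4 pass alone, the difference running from -1.04 in Ext_Coc to -0.37 in Ctx_Coc.

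The channel is held at the endfoot by the dystrophin complex. Of 6 genes of that complex, 1 was higher and 1 lower in Shell, against 4.56% and 8.77% of all genes. Sntb1, a syntrophin, differed by 0.24 ± 0.08 (edgeR adjusted p = 0.0214), and Utrn, the dystrophin relative utrophin, by -0.12 ± 0.04 (0.041). Dmd, dystrophin itself, had a difference of 0.12 that did not pass (edgeR adjusted p = 0.0721). In the fit with background as a covariate, 5 of the 6 were called higher in Shell, where 29.5% of all genes were, among them Dmd (0.21, edgeR adjusted p = 1.31e-06) and Sntb1 (0.07), and Utrn did not pass (-0.01).

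The genes higher in Shell encode a secreted protein, a transporter and a gap junction protein. Agt is angiotensinogen, the precursor of angiotensin peptides, which in brain is made chiefly by astrocytes. Its level in Core ran from 3.01 over a median of 4.46 to 6.14 and in Shell from 4.06 over 5.27 to 6.64. Of 42 Shell libraries 39 lay above the Core median, and 9 Core libraries lay below the lowest Shell library. The difference was 0.84 ± 0.13, 1.79-fold higher in Shell (edgeR adjusted p = 2.36e-07).

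In Core the group medians of Agt lay between 4.24 (HC_Sal, 4.01 to 4.92) and 4.64 (Ext_Sal, 4.07 to 5.47). In Shell they lay between 4.84 (Ctx_Sal, 4.2 to 6.64) and 5.44 (Ext_Sal, 4.06 to 6.04). The Shell libraries of Ctx_Sal were the most spread, and every Shell group median was above every Core group median. Within single groups Agt passed in HC_Coc alone (1.17 ± 0.31, edgeR adjusted p = 0.0263), where the 7 Core libraries ran from 3.92 to 4.86 and the 7 Shell libraries from 4.8 to 6.34. In the other 5 groups the difference ran from 0.55 to 0.97. Background moved the difference little: it was 0.96 ± 0.12 at a background level of 9 to 11, 1.05 with the covariate and 0.84 ± 0.28 in the F series without 17-F, the last of which did not pass (edgeR adjusted p = 0.0544).

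The other genes of the angiotensin pathway did not follow Agt past the test. Of 11 genes for the processing enzymes and receptors, 0 passed (edgeR over all libraries, 13.3% of all genes called), with a median of 0.17. Among those nearest to it were Agtr1b, an angiotensin receptor, at 0.41 ± 0.15 (edgeR adjusted p = 0.0648), and Enpep, which trims angiotensin II, at 0.32 ± 0.13 (0.0737). Without library 17-F, 3 of the 11 were called higher, Agtr1b and Enpep among them (edgeR adjusted p = 0.00819 and 0.0139), where 26.3% of all genes were called and 12.6% were called higher. Once background was a covariate, 3 of the 11 were higher and 2 lower, where 41.3% of all genes were called. In that fit Agtr1b (0.15) was called while Enpep was not (0.09, edgeR adjusted p = 0.112).

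Slc6a11 is GAT-3, the GABA transporter of astrocyte processes. Its level in Core ran from 5.28 over a median of 5.86 to 6.58 and in Shell from 5.75 over 6.42 to 7.34. Of 42 Shell libraries 41 lay above the Core median. The difference was 0.53 ± 0.07, 1.44-fold higher in Shell (edgeR adjusted p = 5.44e-09). Group medians ran from 5.79 to 5.92 in Core and from 6.25 to 6.65 in Shell, so the 2 sets of medians stayed apart. The lowest medians were those of HC_Coc and Ctx_Coc in Core (both 5.79) and of Ctx_Sal in Shell, and the highest Ext_Coc in Core and Ext_Sal in Shell. Within single groups it passed in HC_Coc alone (0.71 ± 0.17, edgeR adjusted p = 0.00818). Over all groups the difference was 0.45 ± 0.07 at a background level of 9 to 11 and 0.69 ± 0.19 in the F series without 17-F (edgeR adjusted p = 0.0543).

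Slc6a12 and Slc6a13, related GABA transporters best known from vessels and meninges, did not pass (0.13 ± 0.17 and 0.10 ± 0.12, edgeR adjusted p = 0.586 and 0.574).

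Gjb6 is connexin 30, a gap junction protein confined in brain largely to astrocytes. Its level in Core ran from 2.09 over a median of 2.98 to 4.34 and in Shell from 2.92 over 3.56 to 5.43. Of 42 Shell libraries 41 lay above the Core median, and 15 Core libraries lay below the lowest Shell library. The difference was 0.60 ± 0.11, 1.51-fold higher in Shell (edgeR adjusted p = 1.02e-05). Its group medians met at the edge: the highest of Core was 3.34 in Ctx_Sal (2.7 to 3.94) and the lowest of Shell 3.34 in Ctx_Coc (3.14 to 4.03), with the others at 2.95 to 3.00 in Core and 3.47 to 3.63 in Shell. The 2 highest Shell libraries were Ctx_Sal 3-18 (5.43) and Ext_Sal 3-6 (5.05), and these had the highest summed markers of meninges and fibroblasts of all 84 libraries, 444 and 498 CPM against medians of 40 CPM in Core and 39.6 CPM in Shell. Without those 2 libraries the difference was 0.46 ± 0.09 (edgeR adjusted p = 2.52e-05), and it was 0.44 ± 0.20 in the F series without 17-F (0.0951).

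Gja1 is connexin 43, the other main gap junction protein of astrocytes, and did not go with Gjb6. Its level in Core ran from 3.11 (17-F) over 6.66 to 7.9 and in Shell from 6.04 over 6.72 to 7.76, and the 2 medians lay close together. Its group medians ran from 6.3 (Ctx_Coc) to 6.72 (Ext_Coc and HC_Sal) in Core and from 6.6 (Ctx_Coc) to 6.84 (HC_Sal) in Shell. The difference was -0.24 ± 0.12 (edgeR adjusted p = 0.179); without 17-F it was -0.27 and was called (0.0468), and with background as a covariate it was 0.20, higher in Shell (0.00448). Of 6 other connexins, 3 were lower in Shell, against 8.77% of all genes. Among them were Gjb1 (-1.12 ± 0.09) and Gjc3 (-1.09 ± 0.09), both known from oligodendrocytes, with edgeR adjusted p of 8.08e-17 and 5e-16. The summed myelin markers above differ in the same direction. Gjb2, connexin 26, which pairs with Gjb6 in astrocytes and is also made by meninges, was called higher (0.40 ± 0.14, edgeR adjusted p = 0.0427); its level was 4.89 and 4.82 in Shell 3-18 and 3-6, and it was not called without them. It is named because its values were seen.

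Promoter windows are shown for 1 gene lower and 2 genes higher in Shell, since these genes moved in opposite directions. They are the 250 bases before the transcription start in RefSeq (build GRCr8), read on the gene's strand, with CG pairs in capitals; the marking of CG was chosen after the sequences had been seen. Gfap, lower in Shell, lies on the minus strand at chr10:88361662-88361911. Gjb6 (the first of 2 start sites, minus strand, chr15:35410139-35410388) and Slc6a11 (plus strand, chr4:148853307-148853556) were higher in Shell.
Gfap: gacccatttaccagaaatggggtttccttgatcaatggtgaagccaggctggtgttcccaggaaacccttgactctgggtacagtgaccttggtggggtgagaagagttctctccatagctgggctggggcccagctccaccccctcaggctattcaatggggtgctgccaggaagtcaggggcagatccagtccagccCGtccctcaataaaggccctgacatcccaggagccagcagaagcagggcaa
Gjb6: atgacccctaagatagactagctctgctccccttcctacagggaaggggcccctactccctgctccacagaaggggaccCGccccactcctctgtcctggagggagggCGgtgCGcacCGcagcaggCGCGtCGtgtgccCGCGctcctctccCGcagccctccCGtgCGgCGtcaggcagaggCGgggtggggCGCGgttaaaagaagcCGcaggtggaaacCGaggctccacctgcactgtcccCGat
Slc6a11: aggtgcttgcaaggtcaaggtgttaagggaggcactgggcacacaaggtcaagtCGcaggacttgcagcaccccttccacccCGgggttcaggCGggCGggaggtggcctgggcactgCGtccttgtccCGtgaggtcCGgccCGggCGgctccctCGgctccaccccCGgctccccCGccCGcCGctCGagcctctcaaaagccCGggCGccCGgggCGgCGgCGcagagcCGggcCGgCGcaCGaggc
The Gfap window holds 1 CG and 57.6% G and C, and 7.83% of all 33469 rat windows of this length hold fewer CG. The Gjb6 window holds 19 CG (68.0% G and C; 81.6% of windows hold fewer) and that of Slc6a11 25 CG (73.6%; 90.3%). The second Gjb6 window in the RefSeq table holds 5 CG (51.2%; 44.7%), so the 2 windows of 1 gene differ in this too. For Aqp4, also lower in Shell, the 2 windows hold 4 CG and 3 CG (37.4% and 28.6% of windows hold fewer). Those of S100b, Aldoc, Aldh1l1 and Gja1, not called over all libraries, hold 5, 6, 7 and 8 CG. A link between CG and direction was not tested. Windows were found for 8 of the 10 genes, those other than Agt and Sox9. Across 10 windows of these 8 genes, both strands were searched for 6 motifs known from astrocyte gene control. The STAT motif (TTCNNNGAA), the full NFI site (its paired form) and the glucocorticoid receptor site (ACANNNTGT) were in 0 windows, against 7.67%, 0.0359% and 5.81% of all windows. The short NFI site (TTGGC, part of the full site) was in 2, that of S100b and the second of Gjb6, against 40.3% of all windows. The Gjb6 window printed above is the first and does not hold it. The SOX core (ACAAT) was in 1, of S100b, against 30%, and the AP-1 motif (TGANTCA) in 1, of Gja1, against 6.34%. These counts are descriptions of these windows only, and no match in a window says nothing of the factor.

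In their medians over all libraries, S100b, Sox9 and Aldoc stood close to equal in the 2 subregions, and Gja1 with them. S100b encodes a calcium-binding protein that astrocytes also secrete, Sox9 the transcription factor that holds astrocyte identity, and Aldoc the brain aldolase of glycolysis. S100b ran from 2.92 over 7.24 to 8.62 in Core and from 6.08 over 7.22 to 8.13 in Shell. Sox9 ran from 1.41 over 4.61 to 5.99 and from 3.53 over 4.72 to 5.83, and Aldoc from 2.74 over 7.08 to 8.52 and from 5.76 over 7.23 to 8.27. In all 3 the lowest Core library was 17-F, and the Core libraries spread over more than the Shell ones. By group, the medians of S100b ran from 6.99 (Ctx_Coc) to 7.53 (Ext_Coc) in Core and from 6.97 (Ext_Sal) to 7.47 (HC_Coc) in Shell. Those of Sox9 ran from 4.49 (Ext_Sal) to 4.99 (Ext_Coc) and from 4.45 (Ext_Coc) to 4.92 (HC_Coc), and those of Aldoc from 6.87 (Ctx_Coc) to 7.38 (Ext_Coc) and from 7.07 (Ext_Sal) to 7.38 (HC_Coc). Ext_Coc thus had the highest Core median and HC_Coc the highest Shell median of all 3, within ranges that overlapped between groups. The differences were -0.32 ± 0.14 for S100b, -0.22 ± 0.13 for Sox9 and -0.14 ± 0.14 for Aldoc (edgeR adjusted p = 0.111, 0.25 and 0.491).

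Without 17-F, S100b was called lower in Shell (-0.35, edgeR adjusted p = 0.0201), which brings the called genes to 7 of 10, where 26.3% of all genes were called. In the F series without 17-F, S100b (-0.72), Gja1 (-0.68), Sox9 (-0.59) and Aldoc (-0.50) were lower in Shell without passing. Their edgeR adjusted p were 0.0631, 0.0645, 0.0985 and 0.154, where 2.1% of all genes were called. With background as a covariate the direction turned for 4 genes: S100b (0.17), Gja1 (0.20), Sox9 (0.24) and Aldoc (0.34) were called higher in Shell, and 9 of 10 genes were called, where 41.3% of all genes were. At a background level of 9 to 11 the same 4 were 0.17, 0.22, 0.25 and 0.33 higher in Shell and all 10 genes were called, against 52.3% of all genes. Within that window the background median was still 10.24 in Core against 9.98 in Shell, so background was not made equal. The covariate fit kept 17-F. In these 4 genes the level was lower where background was higher in both subregions (rho -0.94 to -0.93 in Core without 17-F and -0.88 to -0.81 in Shell). Their direction between the subregions therefore changed with how background was handled, while those of Gfap, Aqp4, Agt, Gjb6 and Slc6a11 stayed in every setting run.

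**Figure D2:**
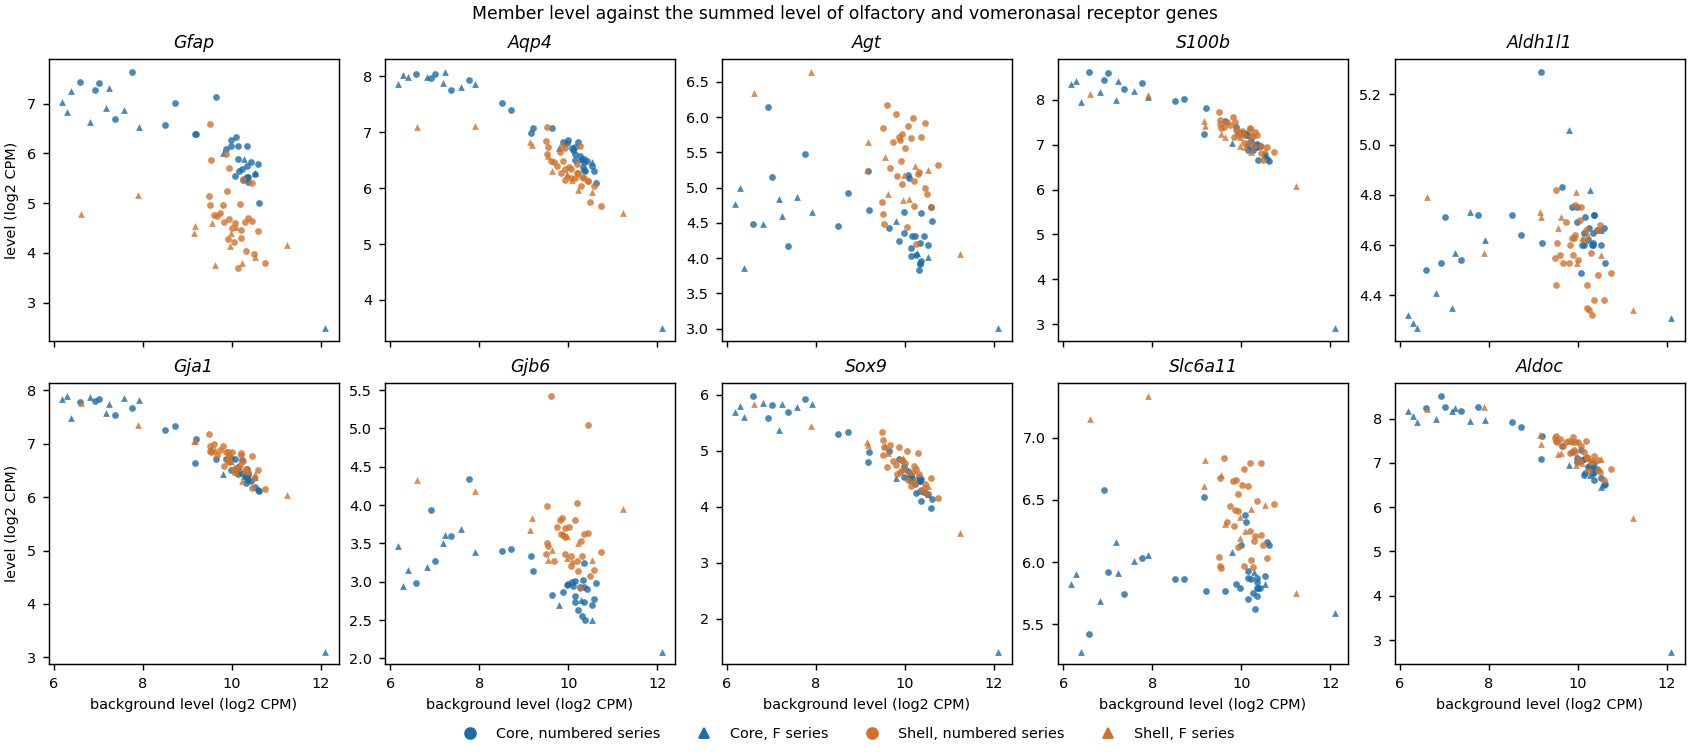
Log2 CPM of each gene (vertical axes) against the background level, the log2 of the summed CPM of 2033 receptor genes (horizontal axes). Core is blue and Shell orange, with numbered series as circles and F series as triangles. Aqp4, S100b, Gja1, Sox9 and Aldoc slope downward against background in both subregions, while at one background Gfap is lower, and Agt and Slc6a11 higher, in most Shell libraries.

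Aldh1l1, the folate enzyme often used to label all astrocytes, had the narrowest range of log2 CPM. It ran from 4.27 over 4.63 to 5.29 in Core and from 4.32 over 4.61 to 4.82 in Shell, with group medians of 4.6 to 4.72 in Core and 4.55 to 4.69 in Shell. The difference was -0.05 ± 0.04 (edgeR adjusted p = 0.398), with an interval of 2 SE on either side from -0.12 to 0.03. Its rho with background was 0.30 in Core without 17-F and -0.44 in Shell, and in 17-F its level was 4.31, within the range of the other Core libraries. On the FPKM scale it was low and less even: 0.269 to 0.894 in Core, with 17-F the highest (0.858 without it). The Core FPKM medians were 0.361 in the F series, 0.431 in series 1 and 0.628 in series 2, whose background medians were 7.41, 8.62 and 10.28. The narrow range was not tested as a measure of astrocyte content. It was called lower in the numbered series alone (-0.12, edgeR adjusted p = 0.0423, where 9.83% of all genes were called) and at a background level of 9 to 11 (-0.13).

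**Figure D3:**
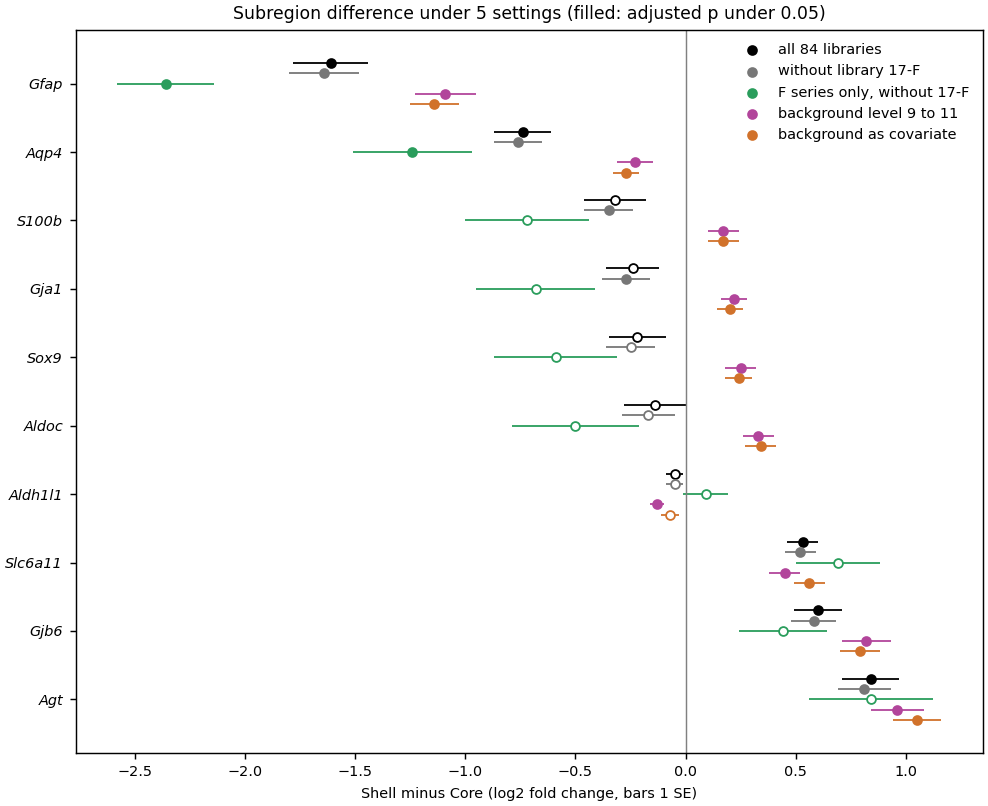
Log2 fold change, Shell minus Core, of each gene (horizontal axis, bars 1 SE) under 5 settings; filled points passed an adjusted p of 0.05. Gfap and Aqp4 stay left of 0 and Agt, Gjb6 and Slc6a11 right of 0 throughout, while S100b, Gja1, Sox9 and Aldoc cross from left to right where background is held.

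The subregion differences were not shown to depend on abstinence or drug. A test of whether Shell minus Core differed among the 6 groups called 0 of 10 genes and 0 of 32145 genes (edgeR quasi-likelihood test; 125 genes and none of the 10 at an unadjusted p under 0.05), with 0% of all genes called.

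Within Core, 0 of 10 genes passed in any of 10 contrasts of drug or abstinence groups, nor in a test over the 6 groups, where 0% of 31370 genes were called (edgeR). All 10 genes had the same sign in 5 of the 10 contrasts, which share libraries with each other, and the median was furthest from 0 in Coc against Sal in Ctx. Without 17-F, 3 of those 5 still had all 10 genes on one side. There the 10 log2 fold changes lay between -0.55 (Aqp4) and -0.18 (Slc6a11), with a median of -0.41 against 0.03 over all genes, and Aldh1l1 had the lowest p (-0.24, unadjusted p = 0.0272 and adjusted p = 0.433 by edgeR). That group holds 17-F, and without it the median was -0.22 (-0.34 to -0.15) and every adjusted p was 1. Averaged over the 3 abstinence groups, the Coc minus Sal difference of Gfap in Core was -0.04, with an interval of 2 SE from -0.43 to 0.36.

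Within Shell, 0 of 10 genes passed in any contrast or in the test over the 6 groups, where 0% of 30911 genes were called (edgeR). Averaged over the 3 abstinence groups, Coc minus Sal was -0.21 for Gfap (2 SE interval -0.50 to 0.07), -0.09 for Agt (-0.45 to 0.26) and -0.04 for Slc6a11 (-0.25 to 0.17). The largest of the abstinence contrasts was Gfap in Ctx against HC with Sal, 0.54 (unadjusted p = 0.0344, adjusted p = 1 by edgeR). Differences of the size seen between the subregions in Gfap thus lie outside these drug intervals, while changes within them are compatible with these data. The intervals are for averages over the 3 abstinence groups and do not cover drug contrasts in single groups.

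The 10 genes also differed in which libraries they were high in. Over 83 libraries without 17-F, after removing group and series means, S100b went with Aqp4 (Spearman rho 0.93), Gja1 (0.92), Aldoc (0.92) and Sox9 (0.89). Agt went with Slc6a11 (0.89) and less with Gjb6 (0.62), Aldoc (0.60) and S100b (0.49). With Gja1, Aqp4, Sox9 and Gfap the rho of Agt was 0.40, 0.35, 0.28 and 0.25. Gfap went most with Aqp4 (0.80), and Aldh1l1 with none of the others (-0.18 to 0.20). The first set is the one whose members follow background, and the libraries share it, so these values describe the libraries.

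**Figure D4:**
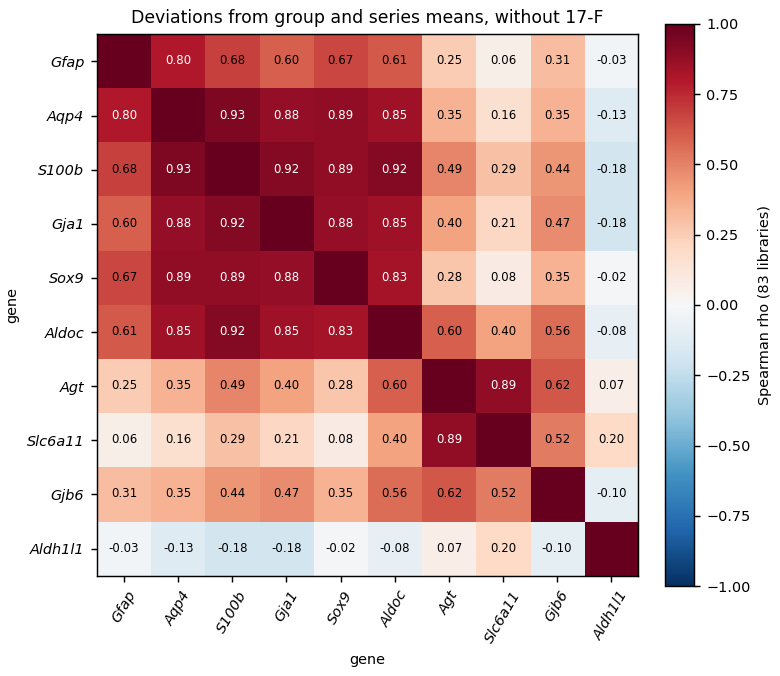
Spearman rho between the 10 genes, as deviations from group and series means over 83 libraries without 17-F (colour scale from -1 to 1). S100b, Aqp4, Gja1, Sox9 and Aldoc form a block of 0.83 to 0.93, Agt and Slc6a11 a pair at 0.89, and Aldh1l1 stands alone.

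Likeness was ranked over 15462 genes with a mean log2 CPM of at least 1. Symbols that are identifiers, and those starting with Mir or Trn, were left out. The 5 closest to Gfap over 84 libraries were Aqp4 (rho 0.82), Id2 (0.80), Mmd2 (0.80), Atxn7l3 (0.79) and Map3k10 (0.79). Of these, Aqp4 and Id2, an inhibitor of helix-loop-helix factors, were called lower in Shell, and Mmd2 (-0.16), Atxn7l3 (-0.17) and Map3k10 (-0.25) did not pass. The 5 closest to Agt were Gpr165 (0.91), Baiap3 (0.90), Slc6a11 (0.89), Itih3 (0.89) and Lhx6 (0.87). All 5 were called higher in Shell, most Gpr165 (1.44 ± 0.16, edgeR adjusted p = 4.71e-11), a G protein-coupled receptor, and Itih3 (1.04 ± 0.13), a hyaluronan-binding protein. Lhx6 (0.57 ± 0.09), a transcription factor of ventral forebrain GABA neurons, and Baiap3 (0.94 ± 0.12), a protein of vesicle release, are known from neurons. In Shell, Agt and Slc6a11 also followed the summed myelin markers (rho 0.87 and 0.87), against 0.40 and -0.05 in Core, though the myelin sum as a whole was lower there than in Core; myelin's part in the difference was not tested.

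Other astrocyte genes also went both ways. Over 75 genes in 5 lists of astrocyte genes, 6 were higher and 16 lower in Shell (4.56% and 8.77% over all genes), with a median of -0.05 against 0.05 over all genes. With background as a covariate 29 were higher and 15 lower (29.5% and 11.8% over all genes), and at a background level of 9 to 11 the numbers were 34 and 19 (24.9% and 27.3%). The lean toward Core over the lists therefore also changed with background.

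Transporters, channels and pumps held most of the higher genes, 5 of 14, with 2 lower (4.56% and 8.77% over all genes). With background as a covariate 11 were higher and 2 lower, where 41.3% of all genes were called. Slc25a18, the mitochondrial glutamate carrier, was higher by 0.92 ± 0.06, Kcnj16, a potassium channel subunit, by 1.01 ± 0.11, and Slc6a9, the glycine transporter GlyT1, was lower (-0.65 ± 0.08), each with an edgeR adjusted p of at most 1.04e-09. These 3 kept their direction and passed with background as a covariate (0.94, 0.93 and -0.42). Among 13 enzymes, metallothioneins and lipid carriers, 0 were higher and 3 lower, against 4.56% and 8.77% over all genes. The lower ones were Dio2, which activates thyroid hormone (-0.77 ± 0.11), Ppp1r3c, a glycogen regulator (-0.33 ± 0.11), and Gldc, of glycine breakdown (-0.09 ± 0.03). In the covariate fit 7 of the 13 were higher and 2 lower (41.3% of all genes called), and of the named genes Dio2 alone passed (-0.43).

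Among 16 surface and secreted genes, 1 was higher and 2 lower, against 4.56% and 8.77% over all genes. With background as a covariate 7 were higher and 2 lower, where 41.3% of all genes were called. Hepacam, an adhesion protein that partners astrocyte channels, was the most changed (-0.60 ± 0.11, and -0.20 with background as a covariate), and Megf10, a phagocytic receptor (-0.11 ± 0.03), and Gpc5, a glypican (0.11 ± 0.04), changed little. Of 14 transcription factors, 5 were lower and 0 higher, against 8.77% and 4.56% over all genes. Among the lower ones were Nfix (-0.34 ± 0.06), Id2 (-0.51 ± 0.12) and Id4 (-0.54 ± 0.14). With background as a covariate Nfix still passed (-0.19), and Id2 (-0.14) and Id4 (-0.08) did not. In that fit 2 of the 14 were higher and 5 lower, where 41.3% of all genes were called.

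Genes of reactive and fibrous astrocytes, the group to which Gfap is most often assigned, had 4 of 18 lower in Shell and 0 higher, against 8.77% and 4.56% of all genes, with a median of 0.08. The lower ones were Id3, another inhibitor of helix-loop-helix factors (-0.84 ± 0.12), the filament genes Nes (-0.28 ± 0.07) and Synm (-0.28 ± 0.08), and Hspb1, a small heat shock protein (-0.47 ± 0.13), the last named because its value was seen. Given background as a covariate, 2 were higher and 4 lower (41.3% of all genes called), and Id3 (-0.50) and Nes (-0.18) still passed. Near relatives of the 10 genes held 5 lower and 1 higher of 11, against 8.77% and 4.56% of all genes. The lower ones included Sox10 (-1.35 ± 0.13) and Sox8 (-0.76 ± 0.14), relatives of Sox9 that act in the oligodendrocyte lineage, and S100a1 (-0.34 ± 0.09), a relative of S100b. Of the 11, 2 were higher and 2 lower with background as a covariate, where 41.3% of all genes were called. In that fit S100a1 did not pass (-0.02, edgeR adjusted p = 0.653).

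**Figure D5:**
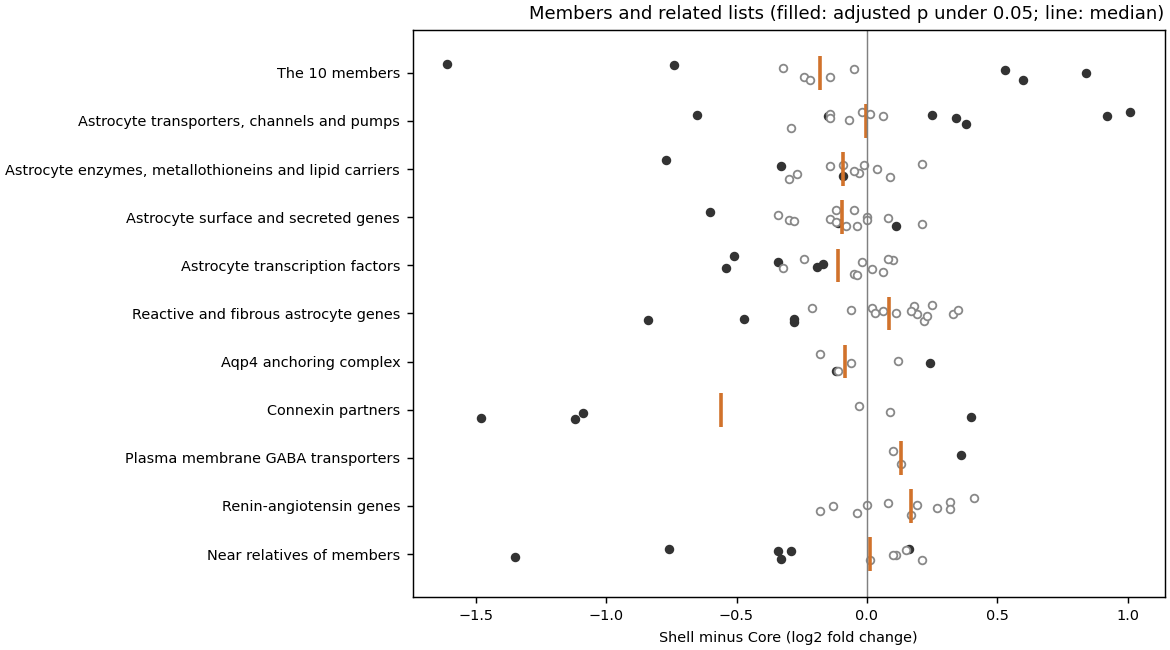
Log2 fold change, Shell minus Core (horizontal axis), of the 10 genes and of each gene in 10 related lists (1 line a list); filled points passed an adjusted p of 0.05 and the bar is the median of the list. The 10 genes reach from -1.61 (Gfap) to 0.84 (Agt), and the connexin list is the furthest left, with a median of -0.56.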

How the data were processed

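Total RNA libraries were made with the Direct-zol and SMARTer Stranded Total RNA-seq v3 Pico kits, per the labels' protocols. The deposited counts are whole numbers per gene and library, made by the authors with featureCounts; the submitters' processing notes name this tool and the build mRatBN7.2. No label or header names an aligner, annotation or strand setting, so overlapping and antisense genes cannot be told apart. The authors' FPKM values divide these counts by 1 length per gene.

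Depth was 13.6 M to 22.5 M counts. Groups came from the library titles. Genes were kept by filterByExpr (32145 of 41919 over all libraries), scaled by TMM and tested two-sided with edgeR 4.0.16 (R 4.3.3, limma 3.58.1), by quasi-likelihood F tests with Benjamini-Hochberg adjustment at 0.05. Shell against Core used all 84 libraries with F against numbered series as a covariate; tests within a subregion used its 42 libraries with series as a covariate. Levels are log2 CPM with a prior count of 2. On simulated counts for 31844 genes, Shell against Core recovered 96% of 100 genes changed by 1 on the log2 scale. It recovered 63% of 100 changed by 0.5, and there were 3 false calls among unchanged genes. These values hold for the simulated counts only. Recovery in the deposited libraries, where calls changed with background and with library 17-F, was not tested. Alternatives were DESeq2 1.42.0 and its size factors, no filter, no library 17-F, a background covariate, other covariates, single series and a replicate block; a background window of 9 to 11 and leaving out Shell 3-18 and 3-6 were chosen after seeing the data.

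The 10 genes and all lists were chosen with earlier results of these data known. Named are the 10 genes, up to 3 genes of lowest p in each list (mean log2 CPM 1 or more), and the 5 genes most like Gfap and Agt; some genes that met this rule are not reported here.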

Additional observations from a re-analysis of the deposited data

Results flagged for a closer look

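In each of 120 sets of 7 libraries (10 genes in 12 groups), the gap from the lowest or highest library to its neighbour was divided by the whole range, and 10 sets exceeded Dixon's critical ratio for 7 values. Chance gives about 1 in 20. The 10 came from 6 libraries, and all values are log2 CPM.

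Core Ctx_Coc library 17-F was flagged as the lowest of its group for 5 genes: Aqp4 at 3.5 (next library 6.09), S100b at 2.92 (6.63), Gja1 at 3.11 (6.12), Sox9 at 1.41 (4.13) and Aldoc at 2.74 (6.53). Library 17-F was also lowest of that group for Gfap (2.49), Agt (3.01), Gjb6 (2.09) and Aldh1l1 (4.31), without exceeding the ratio. Its background level was 12.1, and its summed striatal projection neuron markers were 649 CPM, the lowest of the Core libraries. In Shell Ext_Sal, library 12-F was lowest for Aldoc at 5.76 (next 6.83), with a background level of 11.23, the highest in Shell.

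Gjb6 was highest in Shell Ext_Sal library 3-6, at 5.05 (next 3.95), with meningeal and fibroblast markers at 498 CPM. Gfap was highest in Shell Ext_Coc library 3-2, at 5.87 (next 4.5), with a background level of 9.54 and meningeal markers at 33 CPM. Aldh1l1 was lowest in Core Ext_Sal library 3-F, at 4.29 (next 4.62), and in Shell HC_Sal library 4-10, at 4.32 (next 4.63).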

How the results depend on the processing

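Gfap, Aqp4, Agt, Gjb6 and Slc6a11 kept their direction in every Shell against Core setting run. Of 10 genes, 5 were called over all libraries, 9 with background as a covariate, 10 at a background level of 9 to 11, and in the F series 1, or 2 without 17-F. Over all genes the calls were 4283, against 8454 without 17-F, 13284 with background as a covariate, 16956 at a background level of 9 to 11, and in the F series 76, or 714 without 17-F. Within the 6 groups, background as a covariate took the calls of the 10 genes from 6 to 26 and those of all genes from 2281 to 19852. With background as a covariate S100b, Gja1, Sox9 and Aldoc turned to 0.17, 0.20, 0.24 and 0.34, and at a background level of 9 to 11 to 0.17, 0.22, 0.25 and 0.33. Aldh1l1 turned to 0.10 in the F series and 0.09 without 17-F. For Sox9 the Shell median of log2 CPM was above that of Core (4.72 against 4.61), though its fold change was negative. On log2 FPKM this difference of medians turned to -0.02. The cause was not tested; the F series holds fewer libraries.

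Within subregions, 0 of the 10 genes were called in any setting. All genes gave 0 calls, except over the 6 Core groups 1 without the series covariate, in Core Coc against Sal 1 with background and 3 with DESeq2, over the 6 Shell groups 1 with no filter and 7 without the series covariate, and in Shell Coc against Sal 1 with DESeq2.

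With same-numbered libraries as a replicate block, the same 5 genes were called, against 11.8% of all genes, and Aldoc turned to 0.01 (edgeR adjusted p = 0.984). The labels do not state that numbers pair the libraries, and 27 of 30 pairs correlated above 0.1 (-0.15 to 0.73; 20 correlated best with their own number). With 2 principal components removed, 30 of 30 did (0.158 to 0.705; 24).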
